A study of Caenorhabditis elegans with 9 samples.

Results

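The genes described here are 10 genes that *Caenorhabditis elegans* needs to shed its old cuticle: mlt-8, mlt-9, mlt-10, mlt-11, nas-6, nas-36, nas-37, bli-5, lrp-1 and phg-1. They were chosen by gene symbol for their known role, with earlier results of these data known. The 9 RNA-seq libraries list 13246 genes in all, and 8 of the 10 are among them, while nas-6 and bli-5 had no listed count in any of the 9 libraries and are not analysed further here. After a filter on low counts, 7 of the 10 entered the tests, which nas-36 did not.

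At each larval molt the epidermis (hypodermis) secretes a new cuticle under the old one, and the old cuticle is then loosened, opened and left behind. Secreted metalloproteases of the astacin family cut matrix proteins, Kunitz-type inhibitors hold proteases in check, and a large endocytic receptor on the apical epidermis takes up material from outside. Transcripts of many such genes are known to rise and fall once in each larval stage. The labels do not give where in that cycle the animals were, and its part in the group differences was not tested.

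All 9 libraries came from strains whose rpoa-2 gene, which encodes the second largest subunit of RNA polymerase I, carried a degron and GFP. The hypodermal depletion group (n = 3) also carried TIR1 under the promoter of col-10, a hypodermal collagen gene, and was put as eggs on plates with 1 mM auxin (IAA) and taken at 24 h. The global depletion group (n = 2) carried TIR1 under the broadly active eft-3 promoter, with the same auxin and time. The controls had neither TIR1 nor auxin and were taken at 24 h (n = 2) and at 18 h (n = 2), so effects of TIR1 or auxin cannot be told apart from those of depletion. Animals were grown at 16 °C from synchronized eggs. The labels name whole worm as the source and put the word embryo in each title, and they do not say whether replicates came from separate cultures. The p-values measure only the spread between these libraries, which may be technical.

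Library totals ran from 781648 to 2134185 counts in hypodermal depletion, were 1298047 and 1084894 in global depletion, 324321 and 506659 in the 24 h controls, and 197970 and 166455 in the 18 h controls. The table lists no count below 3, so an unlisted gene was taken to have 0, 1 or 2 counts. On the scale used throughout, CPM (the count scaled by library total and TMM factor), 3 counts stood for 1.44 to 3.88 CPM in the depleted libraries, 9.55 and 6.04 CPM in the 24 h controls, and 14.8 and 18.1 CPM in the 18 h controls. These floors are limits of the listing and do not cover counting error. The degron acts on the protein, so the rpoa-2 mRNA is no check of depletion: it stood at 238 to 290 CPM in hypodermal depletion, 355 and 369 CPM in global depletion, 156 and 260 CPM in the 24 h controls, and 187 and 272 CPM in the 18 h controls. In global depletion it was 0.77 higher on the log2 scale than in the 24 h controls (SE 0.25, edgeR adjusted p = 0.0423), a call lost by DESeq2 (0.0634), with the 2 groups fitted alone (0.0645), at a mean of at least 5 CPM (0.0866), and without global replicate 1 (0.154) or 2 (0.201), hypodermal replicate 2 (0.0556) or 24 h control replicate 1 (0.468). Markers of hypodermis (13 of 13), intestine (11 of 12), body wall muscle (10 of 10), pharynx (9 of 9) and neurons (10 of 10) were listed in at least 1 library. Seam cell (5 of 7) and germ line (7 of 8) markers were listed less fully, with elt-5, nhr-73 and nos-2 among those unlisted everywhere.

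The inhibitor gene mlt-11 had the smallest adjusted p of the 10 in both depletions. Its mRNA, which encodes a secreted protein with Kunitz inhibitor domains, was counted on a transcript with 9387 coding bases over 16 exons (WBcel235, chromosome V, 20667211 to 20678513, plus strand). The 3 hypodermal libraries held 43.3, 25.5 and 24.6 CPM of mlt-11 (90, 38 and 19 counts). The 2 global libraries held 12.1 and 6.03 CPM (16 and 7 counts). The 24 h controls held 551 and 622 CPM and the 18 h controls 543 and 369 CPM. All 5 depleted libraries lay far below all 4 control libraries, and each global library lay below each hypodermal one.

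The mean of mlt-11 fell to 31.1 ± 10.6 CPM in hypodermal depletion (SD, n = 3), against 586 ± 50.4 CPM in the 24 h controls (n = 2), a fitted log2 fold change of -4.17 (SE 0.26, edgeR adjusted p = 1.19e-16). It fell further in global depletion, to 9.04 ± 4.27 CPM (n = 2), a log2 fold change of -5.98 (SE 0.35, adjusted p = 2.12e-17). Both calls held under all 20 alternatives run. The other Kunitz inhibitor gene of the 10, bli-5 (WBcel235, chromosome III, 13427640 to 13429768), has no value to set beside it.

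**Figure D1:**
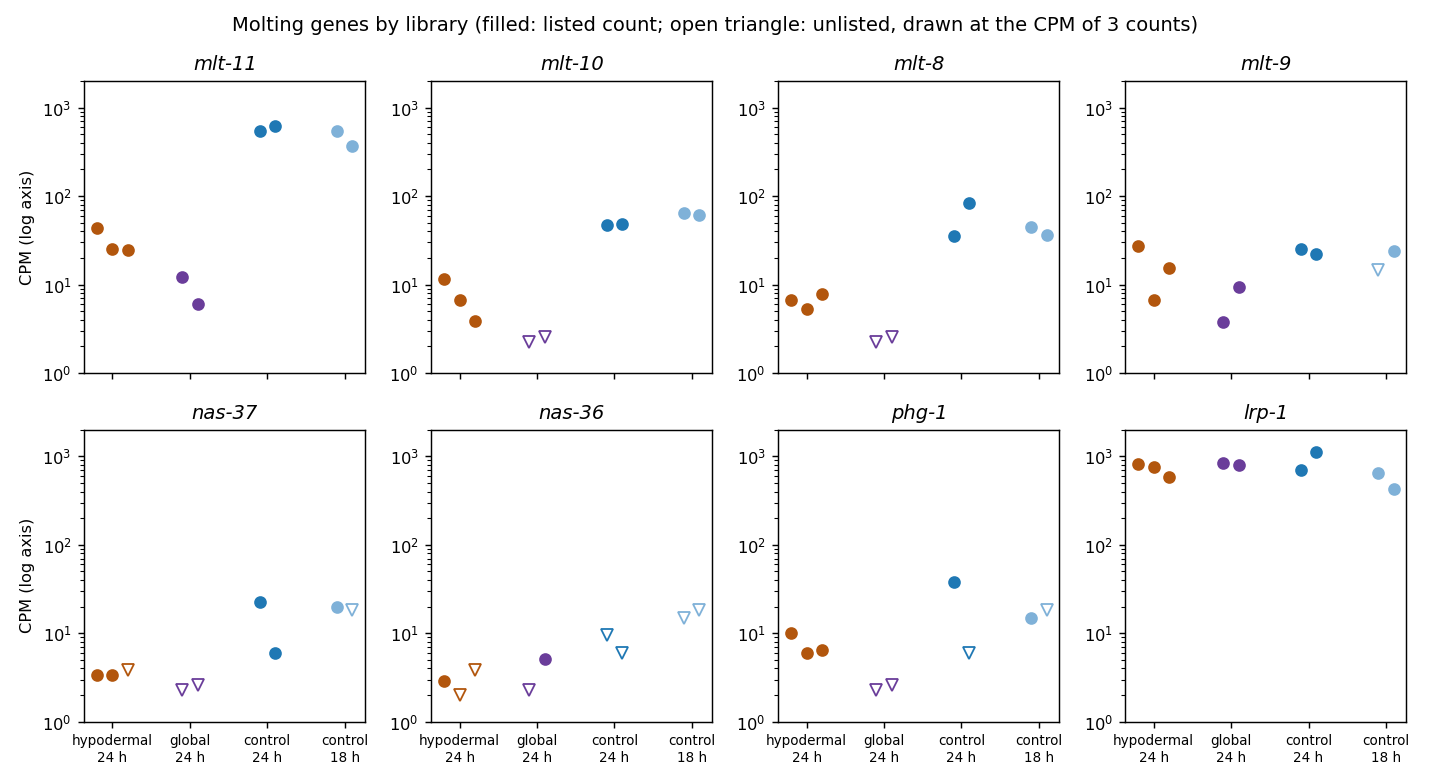
CPM on a log axis for the 8 listed molting genes in each library, 1 panel a gene, with hypodermal depletion, global depletion, 24 h controls and 18 h controls from left to right. Filled points are listed counts and open triangles are unlisted counts drawn at the CPM of 3 counts. The observed value is taken to lie below the triangles. For mlt-11, mlt-10 and mlt-8 every depleted library lies below every control library, while for lrp-1 the groups lie close together.

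The genes mlt-10 and mlt-8 were also lower in both depletions than in both control groups. In C. elegans mlt-10 encodes a secreted protein with proline-rich repeats and is used as a reporter of the molt, and mlt-8 is named for the molting defect seen when it is silenced. The counted transcript of mlt-10 has 2070 coding bases (chromosome II, 546705 to 552031, plus strand). It stood at 11.6, 6.70 and 3.88 CPM in hypodermal depletion (24, 10 and 3 counts), was unlisted in both global libraries, and stood at 47.8 and 48.3 CPM in the 24 h controls and 64.1 and 60.4 CPM in the 18 h controls. The depleted and control groups did not overlap. The gene mlt-10 reached the level of the low-count filter in control libraries alone, so this separation is a description. Against the 24 h controls it fell in hypodermal depletion (log2 fold change -2.57, SE 0.53, edgeR adjusted p = 0.000851) and was at least 19.8-fold lower in global depletion (adjusted p = 1.10e-06), the bound taking 3 counts in each global library. Here and below, such bounds hold for the observed counts and do not cover counting error.

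For mlt-8 (chromosome II, 569236 to 572110, minus strand, 804 coding bases) the hypodermal libraries held 6.74, 5.36 and 7.77 CPM (14, 8 and 6 counts). Both global libraries were unlisted. The 24 h controls held 35.0 and 82.5 CPM and the 18 h controls 44.4 and 36.2 CPM. Again no depleted library reached a control library. As mlt-8 too reached the filter level in control libraries alone, this is a description. Relative to the 24 h controls the gene fell in hypodermal depletion by 3.19 on the log2 scale (SE 0.53, edgeR adjusted p = 3.10e-05), though not without replicate 2 of those controls (0.0604), and was at least 24.3-fold lower in global depletion (adjusted p = 2.13e-07), a bound of 14.5-fold without 24 h control replicate 2.

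The genes mlt-10 and mlt-8 lie 17.2 kb apart, with 4 annotated protein-coding genes starting between their starts. Of these genes C09E8.1 was listed in every library, at 59.6 to 65.0 CPM in hypodermal depletion, 48.2 and 61.1 CPM in global depletion, 73.2 and 52.3 CPM in the 24 h controls, and 69.0 and 96.7 CPM in the 18 h controls. Its depleted and 24 h control values overlapped. The annotation gives mlt-10 an overlap with lips-7 and T27A1.3 on the same strand, in which 13 coding bases are shared. Of the counts that mlt-8 and mlt-10 had together, mlt-8 held 43.1% in hypodermal depletion (28 of 65 counts pooled over libraries, exact 95% binomial interval 30.8 to 56.0%), 57.1% in the 24 h controls (interval 46.3 to 67.5%) and 39.5% in the 18 h controls (interval 24.0 to 56.6%). These intervals overlap.

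The gene mlt-9 (chromosome X, 15101787 to 15107741), also named for a molting defect, passed the test in neither depletion. It had 27.4, 6.70 and 15.5 CPM in hypodermal depletion, 3.77 and 9.47 CPM in global depletion, and 25.5 and 22.1 CPM in the 24 h controls. In the 18 h controls it was unlisted in replicate 1 and had 24.2 CPM in replicate 2, from 4 counts (exact 95% Poisson interval 6.58 to 61.9 CPM). Hypodermal and 24 h control values overlapped, and the global libraries lay below both 24 h controls. The fitted differences from the 24 h controls carried wide errors (global: log2 fold change -1.84, SE 0.72, edgeR adjusted p = 0.112; hypodermal: -0.47, SE 0.61, adjusted p = 0.765).

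The astacin genes were near the limit of detection. The protease NAS-37 helps open the old cuticle at the molt, and its gene (chromosome X, 9944844 to 9949060) had 7 and 5 counts and 1 unlisted library in hypodermal depletion, no listed count in global depletion, 7 and 3 counts in the 24 h controls, and 4 counts and 1 unlisted library in the 18 h controls. In CPM the listed values were 3.37 and 3.35 in hypodermal depletion, 22.3 and 6.04 in the 24 h controls and 19.7 in the 18 h control. The 24 h control values are wide, with exact Poisson intervals of 8.96 to 45.9 and 1.25 to 17.6 CPM. In global depletion nas-37 was at least 5.85-fold lower than in the 24 h controls (edgeR adjusted p = 0.0266), a bound of 2.49-fold without 24 h control replicate 1 and 9.2-fold without replicate 2. That call ended with unlisted counts as 0 (adjusted p = 0.141), by DESeq2 (0.0516), and without global replicate 1 (0.142) or 2 (0.132) or 24 h control replicate 1 (0.35). In hypodermal depletion the difference missed the threshold (log2 fold change -2.14, SE 0.88, adjusted p = 0.175). Like mlt-8 and mlt-10, nas-37 reached the filter level in control libraries alone.

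The second astacin needed for the molt, nas-36 (chromosome I, 7527224 to 7531715), was listed in 2 libraries with 6 counts each, hypodermal replicate 1 (2.89 CPM) and global replicate 2 (5.17 CPM). Both values lie under what 3 counts stood for in either 24 h control, so a difference in nas-36 was not detectable at this depth. The astacin gene nas-6 (chromosome IV, 17486842 to 17490779) has no value here.

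The gene phg-1 (chromosome II, 10137658 to 10139216) is related to the vertebrate growth arrest-specific gene Gas1. It was listed in all 3 hypodermal libraries, at 10.1, 6.03 and 6.47 CPM, and in neither global library. In the 24 h controls it had 12 counts in replicate 1 (38.2 CPM, exact Poisson interval 19.7 to 66.7 CPM) and was unlisted in replicate 2, where 3 counts stood for 6.04 CPM. At 18 h it had 3 counts in replicate 1 and was unlisted in replicate 2. The fit called phg-1 lower in global depletion than in the 24 h controls (edgeR adjusted p = 0.00898), although the unlisted control leaves room for the groups to overlap. This gene too reached the filter level in control libraries alone. Without 24 h control replicate 1 the call ended (adjusted p = 0.805), as it did without global replicate 1 (0.0748) or 2 (0.0599) and with unlisted counts as 0 (0.0759).

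The endocytic receptor gene lrp-1 had the highest CPM of the 10, not corrected for length, and no call in either depletion. LRP-1 is the worm relative of the vertebrate receptor megalin and acts at the apical surface of the epidermis, where it is needed for the molt. The gene (chromosome I, 7614176 to 7634135, 14259 coding bases, 27 exons) had 825, 750 and 583 CPM in hypodermal depletion, 851 and 797 CPM in global depletion, 707 and 1113 CPM in the 24 h controls, and 651 and 423 CPM in the 18 h controls. Every depleted value but that of hypodermal replicate 3 lay between the 2 values of the 24 h controls. The log2 fold change was -0.34 in hypodermal depletion (95% interval -0.76 to 0.07 from the SE of the fit, edgeR adjusted p = 0.42) and -0.15 in global depletion (interval -0.60 to 0.30, adjusted p = 0.771). The intervals leave room for a moderate change in either direction in global depletion, and the global estimate turned to 0.18 without 24 h control replicate 2.

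Of the 7 tested genes, 3 fell in hypodermal depletion against the 24 h controls (mlt-8, mlt-10 and mlt-11) and 0 rose, where 3.41% of the 8035 genes tested fell and 1.66% rose (5.07% in either direction). In global depletion 5 fell (these 3 with nas-37 and phg-1) and 0 rose, where 5.02% of all genes tested fell and 3.43% rose (8.45% in either direction). At an unadjusted p under 0.05 the counts were 4 lower in hypodermal and 6 lower in global depletion with 0 higher in each, and DESeq2 called 3 and 4 lower with 0 higher. The median log2 fold change of the 7 was -2.14 in hypodermal and -4.27 in global depletion, beside 0.03 and 0.01 over all genes tested. The filter asked for 12.8 CPM, before TMM scaling, in at least as many libraries as the smallest group holds, and mlt-8, mlt-10, nas-37 and phg-1 reached that level in control libraries alone, so they were tested only through the group in which they were high. Such genes had to differ to some degree, and the counts and medians are a description.

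**Figure D2:**
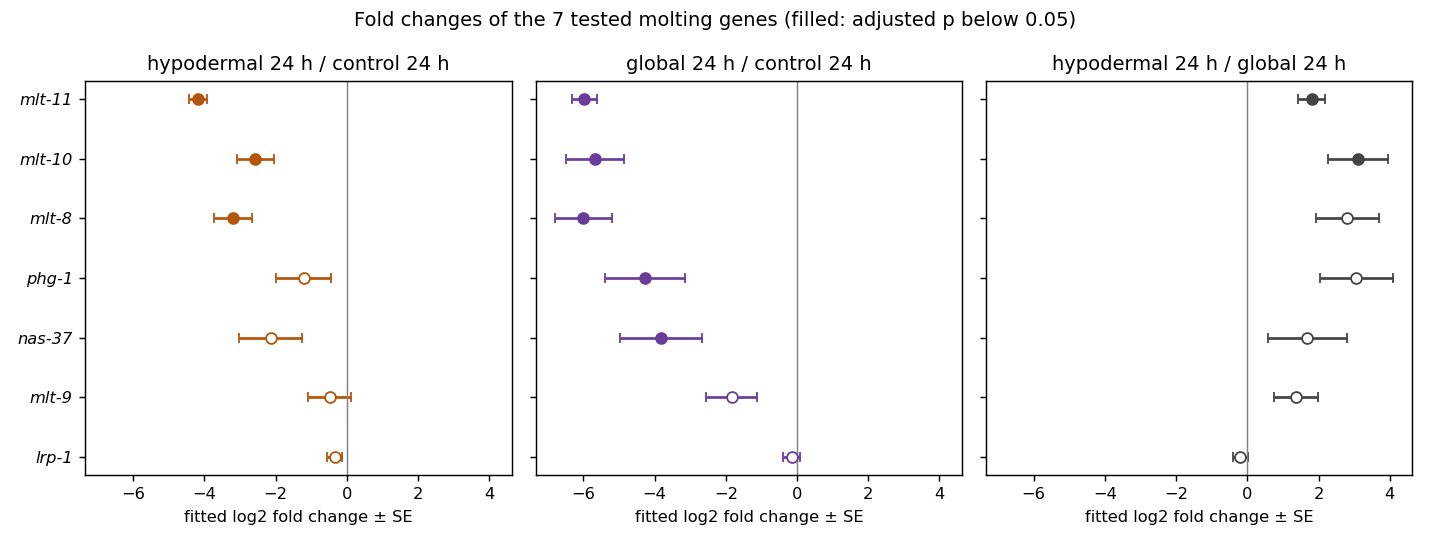
Fitted log2 fold changes (x axis, with SE bars) of the 7 tested molting genes for hypodermal depletion over 24 h controls, global depletion over 24 h controls, and hypodermal over global depletion. Filled points passed an adjusted p of 0.05. Values for genes unlisted in a whole group (mlt-8, mlt-10, nas-37 and phg-1 in global depletion) depend on the value given to unlisted counts. The 3 genes mlt-11, mlt-10 and mlt-8 passed in both depletions, and lrp-1 lay near 0 in all 3 panels.

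Levels of different genes can be set against each other only per length of coding sequence. In the 24 h controls mlt-8 had 73.1 ± 41.8 CPM per kb, lrp-1 63.8 ± 20.2, mlt-11 62.5 ± 5.37, mlt-10 23.2 ± 0.192, mlt-9 13.8 ± 1.37 and nas-37 6.17 ± 5.005 (SD, n = 2 each). The first 3 did not differ beyond their spread. In hypodermal depletion lrp-1 had 50.4 ± 8.71 CPM per kb, phg-1 11.02 ± 3.27, mlt-9 9.63 ± 6.06, mlt-8 8.24 ± 1.503, mlt-10 3.57 ± 1.88 and mlt-11 3.32 ± 1.13 (n = 3 each). In global depletion lrp-1 had 57.8 ± 2.68 CPM per kb, mlt-9 3.85 ± 2.345 and mlt-11 0.964 ± 0.455 (n = 2 each). In hypodermal depletion mlt-11 had the lowest mean of these 6 per kb, within the spread of mlt-10.

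Because mlt-11 and lrp-1 are counted in the same library, their ratio per kb does not depend on how libraries are scaled. The ratio was 0.0798, 0.0516 and 0.0641 in hypodermal depletion, 0.0215 and 0.0115 in global depletion, 1.18 and 0.849 in the 24 h controls, and 1.27 and 1.32 in the 18 h controls. The 4 groups did not overlap. As a share of the counts of both genes, mlt-11 made up 3.28 to 4.99% in hypodermal depletion, 0.75 to 1.40% in global depletion and 35.9 to 43.8% in the 24 h controls. The exact 95% binomial intervals reached no higher than 6.25% in any depleted library and no lower than 32.6% in either 24 h control. They cover counting error only.

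**Figure D3:**
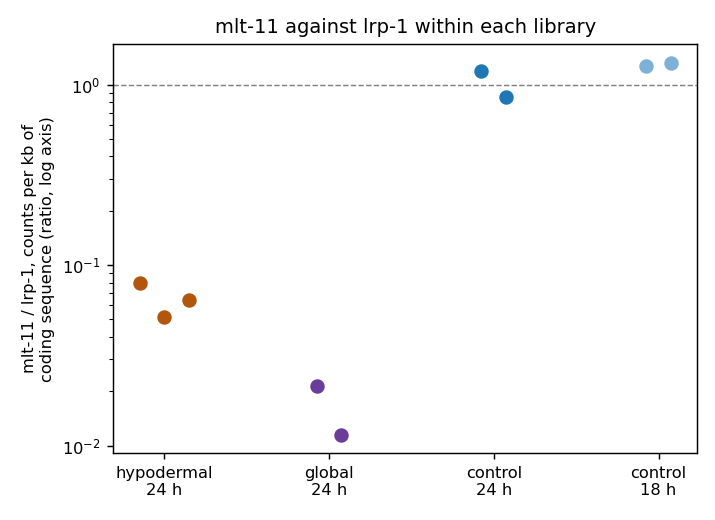
Ratio of mlt-11 to lrp-1, each as counts per kb of coding sequence, on a log axis for every library, with hypodermal depletion, global depletion, 24 h controls and 18 h controls from left to right. The controls lie between 0.849 and 1.32, the hypodermal libraries between 0.0516 and 0.0798, and the global libraries at 0.0215 and 0.0115.

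In bulk samples, fewer cells of a type and less RNA per cell cannot be told apart. The summed level of 13 hypodermal markers, the collagen genes dpy-7 and rol-6 among them, ran from 9017 to 14052 CPM in hypodermal depletion, from 8571 to 9943 CPM in global depletion and from 10942 to 13462 CPM in the 24 h controls. It overlapped between hypodermal depletion and the 24 h controls. In global depletion it lay below the 24 h controls and overlapped hypodermal depletion. Much of the sum came from let-805 and vab-10, which averaged 5520 and 2320 CPM in the 24 h controls. Of the 13, 2 fell in hypodermal depletion (dpy-7 and rol-6) and 3 in global depletion (these 2 and let-805), all named after their values were seen, and 0 rose, with 1 higher at an unadjusted p under 0.05 in each and 0 by DESeq2. Of these, dpy-7 and rol-6 reached the filter level in control libraries alone. For these and the markers below, the shares over all genes tested were 3.41% lower and 1.66% higher in hypodermal depletion. In global depletion they were 5.02% lower and 3.43% higher. The part of the hypodermal markers in the result was not tested. Summed intestinal markers ran from 12285 to 17541 CPM in hypodermal depletion, 9582 to 10386 in global depletion and 11911 to 16306 in the 24 h controls. Summed body wall muscle markers ran from 28621 to 41047, 28880 to 31864 and 27731 to 37822 CPM in the same groups. Of 10 tested intestinal markers, 1 fell and 1 rose in hypodermal depletion (ifb-2 by -0.68 and pgp-1 by 2.70 on the log2 scale), and 4 fell and 1 rose in global depletion. These were cpr-4 (-2.91), cpr-1 (-2.67), pho-1 (-1.86), ifb-2 (-0.76) and pgp-1 (2.76), named after their values were seen. Summed seam cell markers, from 5 of 7 genes, ran from 107 to 131 CPM in hypodermal depletion, 145 to 172 in global depletion and 166 to 199 in the 24 h controls, so that hypodermal depletion lay below the controls. Of 4 tested, grd-10, also named after its values were seen, fell in hypodermal depletion, to 25.4 ± 3.19 CPM against 98.2 ± 5.13 CPM in the 24 h controls (SD, n = 3 and 2, edgeR adjusted p = 2.57e-05). Summed markers of neurons ran from 1870 to 2204 CPM in hypodermal depletion, 2367 to 2469 in global depletion and 2225 to 2345 in the 24 h controls, with no overlap between groups and 0 of 10 called in either depletion by edgeR or DESeq2 (1 lower in hypodermal and 0 in global depletion at an unadjusted p under 0.05). The part of these markers was not tested either.

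The depletions were then compared with each other, which tests whether the fall differed in depth. The level of mlt-11 was higher in hypodermal than in global depletion by 1.80 on the log2 scale (SE 0.37, edgeR adjusted p = 0.000818), a call lost without global replicate 2 (adjusted p = 0.0955) and in libraries thinned to the shallowest total (0.625). Its hypodermal libraries did not overlap the global ones. The gene mlt-10 was at least 3.05-fold higher in hypodermal depletion (adjusted p = 0.02), lost without global replicate 1 (0.272) or 2 (0.223), without hypodermal replicate 1 (0.161) and by DESeq2 (0.087). For mlt-8, at least 2.735-fold higher by the same bound, the test missed the threshold (adjusted p = 0.0537), and so it did for phg-1, at least 3.11-fold higher (0.0851). The mlt-8 difference passed with unlisted counts as 0 (0.0388) and without 24 h control replicate 1 (0.0419), and that of phg-1 without 24 h control replicate 2 (0.0476). In all 2 of the 7 were higher and 0 lower, where 2.96% of all genes tested were higher and 1.42% lower (4.38% in either direction), and at an unadjusted p under 0.05 the counts were 5 and 0, by DESeq2 1 and 0. For lrp-1 the log2 difference was -0.19 (95% interval -0.60 to 0.21, adjusted p = 0.793).

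Between the controls at 24 h and at 18 h no tested member passed edgeR's threshold, with 0 higher and 0 lower of 7, where 0.933% of all genes tested were higher and 2.1% lower (3.04% in either direction). At an unadjusted p under 0.05 the count was 1 higher, lrp-1, and DESeq2 called 0. That gene averaged 910 ± 287 CPM at 24 h and 537 ± 161 CPM at 18 h (SD, n = 2 each), a log2 difference of 0.76 (SE 0.25, adjusted p = 0.0883). It passed under 6 of 19 alternatives, among them unlisted counts as 2 (0.0424). For mlt-11 the means were 586 ± 50.4 CPM at 24 h and 456 ± 123 CPM at 18 h (0.36, SE 0.27, adjusted p = 0.528). For mlt-10 they were 48.0 ± 0.398 CPM at 24 h and 62.3 ± 2.62 CPM at 18 h (-0.37, SE 0.59, adjusted p = 0.799). In the control libraries mlt-10 and mlt-8 rest on 6 to 41 counts each, so small changes were not detectable at this depth.

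Set against the 18 h controls, which differ from the depleted groups in time as well, the same genes were low. In hypodermal depletion 3 of 7 were lower and 0 higher (7.63% and 5.45% of all genes tested, 13.1% in either direction): mlt-11 (log2 fold change -3.82, SE 0.27), mlt-10 (-2.95, SE 0.57) and mlt-8 (-2.62, SE 0.64), at edgeR adjusted p from 6.42e-15 to 0.00367. The mlt-8 call ended without 18 h control replicate 1 (0.114). In global depletion 4 were lower and 0 higher (8.69% and 5.99% of all genes tested, 14.7% in either direction). Of these, mlt-11 changed by -5.62 (SE 0.36, adjusted p = 4.16e-16), mlt-10 was at least 25.7-fold lower (5.61e-07) and mlt-8 at least 16.6-fold lower (1.79e-05). The fourth, nas-37, rests on 4 counts in 1 of the 18 h controls (0.0406), and its call ended without that library (0.565), without any of the other 3 libraries of the 2 groups (0.0521 to 0.123), and with unlisted counts as 0 (0.14). At an unadjusted p under 0.05 the counts were 4 lower and 0 higher in hypodermal and 5 lower and 1 higher in global depletion, and DESeq2 called 3 and 4 lower with 0 higher. The comparisons with the 18 h and 24 h controls share their depleted libraries and so are not separate evidence. Of the genes called, mlt-8, mlt-10 and nas-37 reached the filter level in control libraries alone, so these counts are a description.

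Other genes of the molt were read from lists chosen by name and known role. The lists were drawn up with earlier results of these data known, so their counts are not separate evidence. Of 13 tested genes of the apical matrix and its crosslinking, 6 fell and 1 rose in hypodermal depletion (median log2 fold change -1.06), and by DESeq2 0 rose. The shares over all genes tested were 3.41% lower and 1.66% higher. The riser, dex-1, was named after its values were seen and averaged 55.6 ± 11.5 CPM in hypodermal depletion and 20.4 ± 11.7 CPM in the 24 h controls (SD, n = 3 and 2, log2 fold change 1.57, SE 0.47, edgeR adjusted p = 0.0389). Of the 13, 7 fell and 0 rose in global depletion (median -3.43, with 1 higher at an unadjusted p under 0.05 and 0 by DESeq2). There the shares over all genes tested were 5.02% lower and 3.43% higher. The hedgehog-related gene qua-1, needed for the molt, had 8.67, 10.7 and 5.18 CPM in hypodermal depletion, no listed count in global depletion, and 35.0 and 56.4 CPM in the 24 h controls. It fell in hypodermal depletion (log2 fold change -2.43, SE 0.56, edgeR adjusted p = 0.00397), though not without 24 h control replicate 2 (0.139) or with unlisted counts as 0 (0.116), and was at least 18.9-fold lower in global depletion (adjusted p = 4.61e-06). Like mlt-8 and mlt-10, qua-1, lpr-3 and let-4 of the 13 reached the filter level in control libraries alone, so their calls and the counts of the list are a description.

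The lipocalin-related matrix gene lpr-3 had 3.37, 2.68 and 3.88 CPM in hypodermal depletion, 4.30 CPM in 1 global library with the other unlisted, and 124 and 78.5 CPM in the 24 h controls. It fell in hypodermal (-4.89, SE 0.56, edgeR adjusted p = 9.46e-09) and in global depletion (-5.28, SE 0.68, adjusted p = 1.12e-07). The leucine-rich repeat gene sym-1 had 47.7, 40.2 and 44.0 CPM in hypodermal depletion, 10.6 and 4.30 CPM in global depletion, and 153 and 226 CPM in the 24 h controls. It fell in both (-2.12, SE 0.29, and -4.63, SE 0.40). Between the depletions 6 of the 13 were higher in hypodermal depletion and 0 lower, with 8 and 0 at an unadjusted p under 0.05 and 5 and 0 by DESeq2. In thinned libraries 2 of the 13 were higher. Without thinning, 2.96% of all genes tested were higher and 1.42% lower.

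Of 15 tested regulators of the molt cycle 1 fell in each depletion, lin-42, the relative of the clock gene period. It had 19.7, 10.05 and 14.2 CPM in hypodermal depletion, 7.54 and 8.61 CPM in global depletion, and 178 and 143 CPM in the 24 h controls (log2 fold changes -3.40, SE 0.36, and -4.29, SE 0.45, edgeR adjusted p = 9.90e-10 and 4.52e-10). No regulator rose by edgeR or DESeq2, nor at an unadjusted p under 0.05. Over all genes tested, 3.41% fell and 1.66% rose in hypodermal depletion, and 5.02% fell and 3.43% rose in global depletion. The list's median was 0.08 in hypodermal and -0.24 in global depletion, near that of all genes.

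Of 15 tested genes of other proteases and protease relatives, 1 rose and 0 fell in hypodermal depletion (1.66% and 3.41% of all genes tested). There 4 were lower at an unadjusted p under 0.05 and 0 by DESeq2. In global depletion 3 fell and 0 rose (5.02% and 3.43% of all genes tested), and 0 were higher at an unadjusted p under 0.05 and by DESeq2. The cathepsin L gene cpl-1, which encodes a cysteine protease, had 603, 742 and 746 CPM in hypodermal depletion, 145 and 157 CPM in global depletion, and 248 and 423 CPM in the 24 h controls. These 3 groups did not overlap. In the 18 h controls cpl-1 had 330 and 127 CPM, on both sides of the global values. Against the 24 h controls it rose in hypodermal depletion (log2 fold change 1.03, SE 0.24, edgeR adjusted p = 0.00498) and fell in global depletion (-1.17, SE 0.27, adjusted p = 0.00238). It also differed between the depletions (2.20, SE 0.25, adjusted p = 7.30e-09). The rise ended without 24 h control replicate 1 (0.296), and the fall without replicate 2 (0.188) and in thinned libraries (0.0853). The difference between the depletions held under every alternative run.

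The cathepsin Z gene cpz-1, needed for the molt, averaged 72.3 ± 16.4 CPM in hypodermal depletion, 31.01 ± 7.33 CPM in global depletion and 136 ± 38.8 CPM in the 24 h controls (SD, n = 3, 2 and 2). It fell in global depletion (-2.14, SE 0.35, edgeR adjusted p = 1.76e-05). The gene acn-1, which encodes a relative of angiotensin-converting enzyme needed for the molt, averaged 78.8 ± 17.02, 31.01 ± 15.9 and 93.8 ± 15.9 CPM in the same groups. It fell in global depletion (-1.56, SE 0.40, adjusted p = 0.0072), though not without global replicate 2 (0.195), without 24 h control replicate 1 (0.0682) or in thinned libraries (0.0574).

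**Figure D4:**
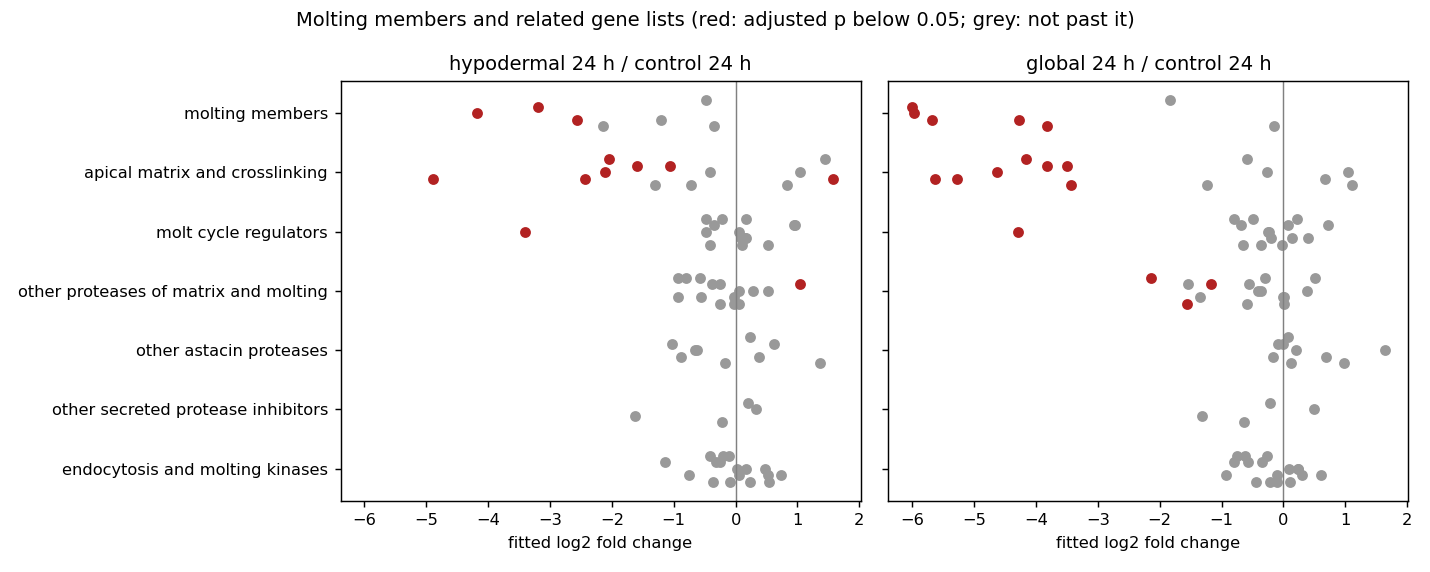
Fitted log2 fold changes (x axis) of the tested genes of the molting set and of 6 related lists, each point 1 gene, for hypodermal depletion over 24 h controls (left) and global depletion over 24 h controls (right). Red points passed an adjusted p of 0.05. Most red points lie in the molting set and the apical matrix list, and the other astacin, inhibitor and endocytosis lists have none. The molt cycle regulators have 1 in each panel, and the other proteases have 1 at left and 3 at right. In the molting set mlt-8, mlt-10, nas-37 and phg-1 reached the filter level in control libraries alone. So did 3 of the 13 matrix genes, so the contrast between lists is a description.

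Other astacin genes gave no call against the 24 h controls. Of 24 listed, 9 were deep enough to test and 0 passed edgeR's threshold in either depletion, with 1 lower in hypodermal and 1 higher in global depletion at an unadjusted p under 0.05 and 0 by DESeq2. The median log2 fold change was -0.16 in hypodermal and 0.13 in global depletion. Over all genes tested, edgeR called 5.07% in hypodermal and 8.45% in global depletion, and 4.38% between the depletions. Between the depletions 1 of the 9 differed, nas-9, with 8.72 ± 0.891 CPM in hypodermal and 41.8 ± 9.16 CPM in global depletion (SD, n = 3 and 2). The log2 difference was -2.26 (SE 0.45, edgeR adjusted p = 0.000633) and was not called without global replicate 1 (0.0645). It was named after its values were seen. Of 4 tested protease inhibitors of other families (cpi-2, srp-3, srp-6 and srp-7) 0 passed in either depletion. At an unadjusted p under 0.05, 1 was lower in hypodermal and 0 in global depletion, and DESeq2 called 0.

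Endocytosis genes and the kinases and adaptors that act with LRP-1 also gave no call. Of 17 tested, 0 passed in either depletion by edgeR or DESeq2. At an unadjusted p under 0.05, 2 were higher and 1 lower in hypodermal depletion, and 0 higher and 3 lower in global depletion. The list's median was -0.09 in hypodermal and -0.22 in global depletion. Over all genes tested, edgeR called 5.07% in hypodermal and 8.45% in global depletion.

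One more gene of the mlt series moved with time. The gene mlt-7, which encodes a peroxidase of cuticle crosslinking, averaged 110.3 ± 11.9 CPM at 24 h and 293 ± 30.3 CPM at 18 h in the controls (SD, n = 2 each), a log2 difference of -1.39 (SE 0.31, edgeR adjusted p = 0.00482). It was named after its values were seen. The call ended without either 24 h control (0.0764 and 0.0739), without 18 h control replicate 2 (0.0843) and with no filter (0.0773). In the depleted libraries it ran from 76.1 to 96.5 CPM, under both 24 h controls.

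Genes with a pattern like that of a member were found by the mean absolute difference in log2(CPM + 1) over the 9 libraries, each gene centred on its own mean, among 7425 genes of at least 10 CPM. For lrp-1, which had the highest mean CPM of the 10, the 5 closest were flp-6, chd-3, sup-37, xnp-1 and utp-20, at 0.092 to 0.122, where the median gene was at 0.54. For mlt-11, added after its values were seen, they were lpr-5, H42K12.3, grl-7, acs-2 and lpr-3, at 0.595 to 0.697, where the median gene was at 2.39. Among the members mlt-10 was at 0.583 and mlt-8 at 0.65 from mlt-11, and mlt-8 was at 0.46 from mlt-10, while lrp-1 was at 2.40 from mlt-11. The 9 points fall into 4 groups of unlike depth, and unlisted counts entered as 1.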

How the data were processed

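RNA-seq counts of 9 libraries were used. Per the labels' protocols, RNA was extracted with Trizol, ribosomal RNA removed with RNase H and libraries made with a SMARTER kit. The table deposited by the authors gives raw whole counts for the coding sequence of each gene, with 1 transcript a gene and no count below 3. Its transcript names carry WBcel235, the build in the submitters' processing notes, which also list DESeq2. The sources used here do not give the aligner, the counter, the use of strand or how ambiguous reads were assigned. The table names 10 libraries, and 1 that matched no sample was not used.

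Unlisted counts entered as 1. The main test was edgeR's robust quasi-likelihood fit (version 4.0.16, R 4.3.3) of 8035 genes in all 9 libraries, with 1 term for each group, TMM scaling and filterByExpr (minimum count 10, total 15), with Benjamini-Hochberg adjusted p below 0.05 over all of them. Its common biological coefficient of variation was 0.203. DESeq2 1.42.0 was an alternative. Coding lengths come from the Ensembl annotation of the same build. Members and lists were chosen with earlier results of these data known. Members, rpoa-2 and, per list, up to 3 called genes with the largest change and no overlap are named, and the text marks genes named otherwise. Replicate pairs of a group differed by more than sampling noise.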

Additional observations from a re-analysis of the deposited data

Results flagged for a closer look

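The effects of hypodermal and global depletion, each taken against the same 24 h controls, differed for 2 members by the direct test of one depletion over the other. For mlt-11 the difference was 1.80 on the log2 scale (31.1 ± 10.6 CPM in hypodermal and 9.04 ± 4.27 CPM in global depletion, SD, n = 3 and 2, edgeR adjusted p = 0.000818). That call was lost in libraries thinned to the shallowest total (0.625) and without global replicate 2 (log2 difference 1.41). For mlt-10 the fitted difference was 3.10 (7.38 ± 3.88 CPM in hypodermal depletion, unlisted in both global libraries, adjusted p = 0.02), a value that depends on the 1 given to unlisted counts. The mlt-10 call was lost by DESeq2 (0.087), without hypodermal replicate 1 (0.161) and without either global replicate. This gene reached the filter level in no library of either depletion.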

How the results depend on the processing

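The falls of mlt-11 and mlt-10 against the 24 h controls kept their direction and side of the threshold in both depletions under every alternative that could be fitted. In libraries thinned to the shallowest total, where 3650 genes and 2 members (mlt-11 and lrp-1) could be tested, calls over all genes were 312 (global against 24 h controls), 151 (hypodermal against 24 h controls), 125 (hypodermal against global), 143 (24 h against 18 h), 725 (global against 18 h) and 622 (hypodermal against 18 h). Members called lower were then 1 in each depletion against either control, members higher in hypodermal than global depletion 0, and matrix genes higher there 2. Without thinning the counts over all genes were 679, 407, 352, 244, 1179 and 1051.

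With unlisted counts as 0, members lower in global depletion than in the 24 h controls were 3, as with those 2 groups fitted alone, and genes called in hypodermal depletion were 250. Members higher in hypodermal than global depletion were 1 by DESeq2 and with the 2 groups alone, which also left 92 calls between 24 h and 18 h. With no filter those calls were 435, and calls for hypodermal depletion against 18 h were 1626. One member, lrp-1, was higher at 24 h than at 18 h with unlisted counts as 0 or 2, with no filter and at a mean of at least 5 CPM (1 in each). Members higher against 18 h were 1 in global depletion with unlisted counts as 0 or 2 and with no filter, and 1 in hypodermal depletion with no filter.

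Replicate numbers did not pair the libraries: the correlations of same-numbered deviations ran from -0.0324 to 0.113. With a replicate block the calls were 269 (hypodermal against 24 h controls) and 211 (hypodermal against global). The block in effect leaves out hypodermal replicate 3. Of the calls named above, the block ended the rise of cpl-1 in hypodermal depletion (adjusted p = 0.0515).

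Leaving out each library in turn, calls over all genes ran from 347 to 758 (global against 24 h), 255 to 459 (hypodermal against 24 h), 161 to 419 (hypodermal against global), 78 to 235 (24 h against 18 h), 678 to 1310 (global against 18 h) and 515 to 1160 (hypodermal against 18 h). Members lower ran from 3 to 5, 2 to 3, 0 to 0, 0 to 0, 3 to 4 and 2 to 3 in the same order, and members higher from 0 to 3 (hypodermal against global), 0 to 1 (24 h against 18 h) and 0 to 1 (global against 18 h). Matrix genes lower in hypodermal depletion, and higher there than in global depletion, ran from 4 to 6.

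Directions turned for uncalled differences alone. That of lrp-1 in global depletion against 24 h was 0.023 thinned, 0.16 with controls of both times pooled (chosen after seeing the data), and ran from -0.46 to 0.18 with 1 library left out. Between 24 h and 18 h mlt-10 was 0.041 with no filter, and with 1 library left out mlt-8 ran from -0.090 to 1.125 and phg-1 from -2.24 to 1.94. There nas-37 was 0.52 (unlisted counts as 0), 0.36 (no filter), 0.079 (5 CPM) and 0.024 (replicate block), and ran from -1.025 to 1.18 with 1 left out. In hypodermal depletion phg-1 ran from -2.38 to 1.80 against 24 h, and against 18 h it was 0.195 (unlisted counts as 0) and 0.031 (no filter) and ran from -0.86 to 0.40. Against 18 h mlt-9 ran from -1.82 to 0.46 in global and from -0.45 to 1.825 in hypodermal depletion. The cause was not tested.

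Scaling by total count alone moved the all-gene median in global depletion against the 24 h controls to 0.11 and the split there to 360 higher and 340 lower, against 276 and 403, and that between hypodermal and global depletion to 204 and 156, against 238 and 114. Size factors moved the median of global depletion against 18 h to -0.11 and the hypodermal split against 18 h to 317 and 736, against 438 and 613. Depth limits nas-36, nas-37, phg-1 and mlt-9 most, with 12 counts or fewer in every control library.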
